A study of Mus musculus with 6 samples.

Results

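The natriuretic peptide genes were followed through muscle RNA from dystrophic and wild-type mice: the hormone genes Nppa and Nppb, the processing enzyme gene Corin, and the receptor genes Npr1, Npr2 and Npr3. These 6 genes, of 20972 with a symbol on the array, were found as the non-control probes annotated with a RefSeq transcript of one of them. Each gene had 1 probe, printed in 10 spots for Nppa and in 1 spot for each other gene. The series held 6 one-colour Agilent arrays in 3 groups of 2: MDX_JJ101, MDX mice given JJ101, a bioceramic water; MDX_tap, MDX mice given tap water; and B10_tap, wild-type C57BL/10 mice given tap water. MDX mice lack functional dystrophin, the protein that links the muscle fibre's cytoskeleton to its membrane. Time on the water was 10 months in every group, and the age of the mice was not given in the sources used here. The labels number the replicates without saying that they came from separate mice, so a p-value here measures the spread between arrays, which may be technical.

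A level, here and below, is a log2 signal from which the array's own 75th percentile was subtracted, so that 1 unit is a doubling. A difference is the first group's mean level minus the second's. The gene set was chosen by values of these same arrays, namely the group levels of Nppa and the high signals of heart regulator genes. The values of both hormone genes, Nppa and Nppb, are therefore given as a description, with no test. Corin and the receptor genes were tested with limma across all 20871 genes and transcripts that passed the filter on dim probes, with Benjamini-Hochberg adjustment.

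All 6 arrays lay on 1 slide, with both MDX_JJ101 arrays in row 2 and the others in row 1, so slide row and JJ101 cannot be told apart. Both B10_tap arrays lay in columns 1 and 2 and the MDX arrays in columns 3 and 4, and genotype likewise cannot be told apart from slide column. The share of spots well above background was 43.8% and 42.5% on the MDX_JJ101 arrays, 49.6% and 48.1% on the MDX_tap arrays, and 51.6% and 51.4% on the B10_tap arrays. The labelled tissue is gastrocnemius, a calf muscle, yet the skeletal muscle regulator genes Myod1 and Myog were not well above background on any array. The fast myosin gene Myh4 was not well above background on the MDX_JJ101 arrays, with levels of -5.52 and -5.42. It had levels of 0.91 and 3.53 on the MDX_tap arrays, and 2.62 and 2.28 on the B10_tap arrays. Of 12 skeletal muscle markers, 10 were well above background on each of the 4 tap-water arrays, and 5 and 4 on the MDX_JJ101 arrays. Their summed signal, in units of the 75th percentile, was 262 to 281 in MDX_JJ101, 149 to 150 in MDX_tap and 151 to 153 in B10_tap. Such a sum is weighted towards the brightest genes. Of the 10 that passed the filter, 6 were lower and 2 higher by limma in MDX_JJ101 against MDX_tap (background 16.1% and 19.9%). The median difference of the 10 was -2.92. All 9 heart muscle genes of a list covering any chamber (Myh6, Tnni3, Tnnt2, Mybpc3, Actc1, Ryr2, Gata4, Nkx2-5 and Tbx5) were well above background on every array. Among 8 atrial markers, 5 were well above background on every array, while Bmp10 was so on 0 arrays and Myl7, the atrial myosin light chain, on 1. The hormone values below thus come from RNA that carried heart muscle markers, which go against the labelled tissue, beside most skeletal muscle markers on the tap-water arrays.

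Natriuretic peptides are hormones of the heart. Nppa encodes atrial natriuretic peptide and Nppb encodes brain natriuretic peptide. Both are released when heart muscle is stretched, and both act on kidney and vessels to lower blood volume and pressure. Ventricular expression of Nppa is high in the fetus, falls after birth and returns under load, which makes it a widely used marker of cardiac stress. Corin, a membrane-bound serine protease of cardiomyocytes, cuts the atrial prohormone into its active form. Npr1 encodes the guanylyl cyclase receptor for both hormones, Npr2 the guanylyl cyclase receptor for the related C-type peptide, and Npr3 a receptor that removes the peptides from the circulation.

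Nppa and Nppb are neighbours on mouse chromosome 4, with no annotated gene between them, and differed in how they varied over these arrays. The 250 bases before each annotated start are shown because the 2 genes are known to share cardiac regulators. They come from RefSeq, build GRCm38.p6, plus strand, at chr4:148000472-148000721 for Nppa and chr4:147985650-147985899 for Nppb, and promoters of all 6 genes were found there by symbol. Capitals mark every match, on either strand, to a TATA box (TATAAAA) or to motifs that cardiac regulators are known to bind. For Gata4 and its relatives that motif was GATAA, and for Nkx2-5 it was AAGTG. For Tbx5 and other T-box factors it was TCACACC, and for TEAD factors the M-CAT element GGAATG. A CArG box, which serum response factor binds, was searched as well.
Nppa: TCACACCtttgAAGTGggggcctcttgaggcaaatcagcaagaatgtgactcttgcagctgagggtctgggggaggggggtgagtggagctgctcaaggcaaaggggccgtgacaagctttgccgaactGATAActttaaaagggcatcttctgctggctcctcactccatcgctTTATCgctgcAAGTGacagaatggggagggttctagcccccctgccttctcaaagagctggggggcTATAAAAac
Nppb: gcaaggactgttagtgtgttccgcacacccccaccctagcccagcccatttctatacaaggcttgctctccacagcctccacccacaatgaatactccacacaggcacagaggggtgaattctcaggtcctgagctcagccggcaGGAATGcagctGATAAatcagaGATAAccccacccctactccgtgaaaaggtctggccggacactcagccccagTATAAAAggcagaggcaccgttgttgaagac
The Nppa window held 6 matches and the Nppb window 4, none of which overlapped another. Both windows held a TATA box, which was present in 4.98% of 32851 mouse promoter windows of the same length, and both held 2 GATA matches. The TATA box lay 9 to 3 bases upstream of the Nppa start and 31 to 25 bases upstream of the Nppb start. All distances are counted from the annotated starts, which were not checked against these data. GATA matches lay 121 to 117 and, on the other strand, 75 to 71 bases upstream of the Nppa start, and 94 to 90 and 83 to 79 bases upstream of the Nppb start. The Nppa window alone of the pair held a T-box match, at 250 to 244 bases upstream, and Nkx2-5 matches, at 239 to 235 and 65 to 61 bases upstream. An M-CAT match, 105 to 100 bases upstream, was in the Nppb window and not in that of Nppa. Of all windows, 22.6% held the GATA letters, 40.7% the Nkx2-5 letters, 12.6% the M-CAT letters, 3.33% the T-box letters and 1.47% a CArG box, which matched in neither gene. These matches are descriptions of the letters in the windows.

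Nppa was highest in JJ101-fed MDX mice, intermediate in tap-fed MDX mice and lowest in wild-type mice. Its levels were 9.99 and 9.34 on the MDX_JJ101 arrays, 8.97 and 8.52 on the MDX_tap arrays, and 7.09 and 7.48 on the B10_tap arrays. In the processed signal before scaling, these were 219115 and 125772 on the MDX_JJ101 arrays, 120216 and 75091 on the MDX_tap arrays, and 29705 and 39767 on the B10_tap arrays, and no spot was saturated. No 2 groups overlapped. The lower MDX_JJ101 array stood above the higher MDX_tap array by less than the distance between the replicates of either group, so the upper step of this order is close to the replicate spread.

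Mean Nppa levels were 9.66 ± 0.46 in MDX_JJ101, 8.75 ± 0.32 in MDX_tap and 7.29 ± 0.28 in B10_tap (SD, n = 2 each). The difference was 1.46 for MDX_tap against B10_tap (SE 0.29, 95% interval 0.73 to 2.19), a 2.75-fold higher signal. For MDX_JJ101 against MDX_tap it was 0.91 (SE 0.29, 95% interval 0.18 to 1.64), or 1.88-fold. Between MDX_JJ101 and B10_tap it was 2.37 (SE 0.29, 95% interval 1.64 to 3.10), or 5.18-fold. Of the 20871 genes tested, 161 had a larger difference than Nppa between MDX_tap and B10_tap, 767 between MDX_JJ101 and MDX_tap, and 35 between MDX_JJ101 and B10_tap. Because the levels of Nppa chose the gene set, a high rank and an interval without 0 were built in. Neither serves as a test. These 3 differences share arrays and are not independent. In bulk RNA, fewer cells of a type and less RNA per cell cannot be told apart. Across the alternative settings the MDX_JJ101 against MDX_tap difference ran between 0.46, with spike-in scaling, and 1.24, without MDX_JJ101 replicate 2. Spike-in scaling moved the median of all genes in that comparison to -0.45, and median centring moved it to 0.23, where the Nppa difference was 1.14.

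**Figure D1:**
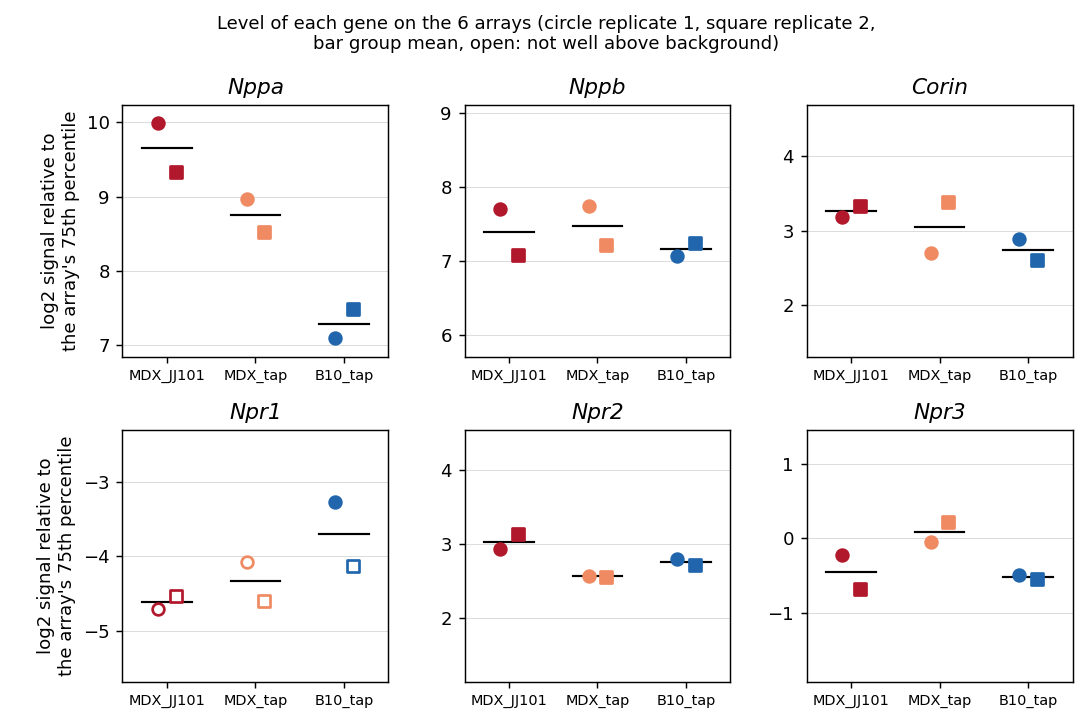
Level of each of the 6 genes, as log2 signal over the array's 75th percentile, on the 2 arrays of MDX_JJ101, MDX_tap and B10_tap. Circles are replicate 1, squares replicate 2, bars group means, and open symbols arrays on which the probe was not well above background; every panel spans the same number of log2 units. Nppa steps down from left to right without overlap, and Npr1 has a single filled symbol.

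The repeated printing of Nppa gives the error of the measurement within an array. Its 10 spots had an SD of 0.061 and 0.058 on the MDX_JJ101 arrays, 0.061 and 0.046 on the MDX_tap arrays, and 0.053 and 0.081 on the B10_tap arrays. One spot was left out as an outlier on each of MDX_tap replicate 1, MDX_tap replicate 2 and B10_tap replicate 1. The lowest and highest spot used on an array lay at most 0.29 apart, on B10_tap replicate 2. Replicates lay further apart than their spots: replicate 1 was 0.65 above replicate 2 in MDX_JJ101 and 0.45 above it in MDX_tap, and 0.39 below it in B10_tap. Spread between arrays, not between spots, therefore set the error of Nppa.

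**Figure D2:**
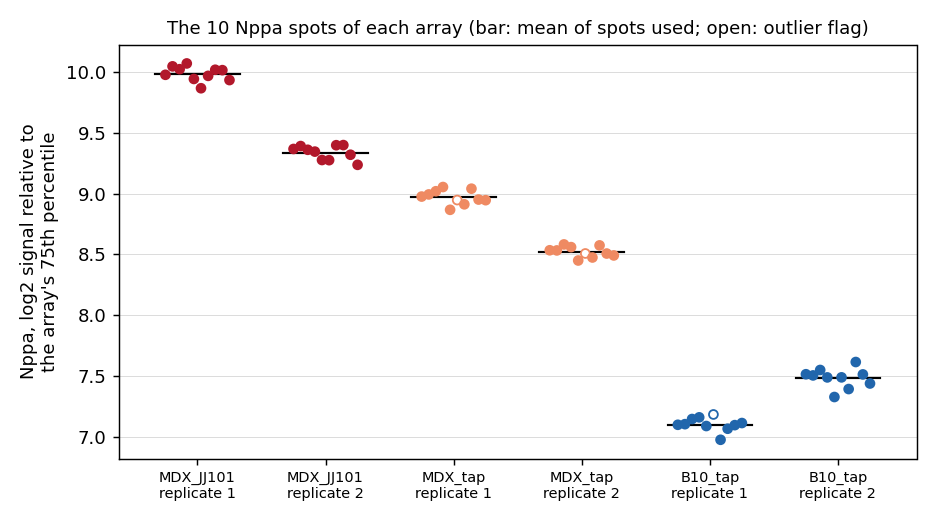
Level of the 10 Nppa spots on each array, as log2 signal over the array's 75th percentile, with a bar at the mean of the spots used and open circles for spots flagged as outliers. Spots of an array span at most 0.29 between those used, less than the distances of 0.65, 0.45 and 0.39 between the replicates of MDX_JJ101, MDX_tap and B10_tap.

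Nppb did not follow the order of Nppa. Its levels were 7.71 and 7.08 on the MDX_JJ101 arrays, 7.74 and 7.21 on the MDX_tap arrays, and 7.07 and 7.25 on the B10_tap arrays. The 3 groups overlapped, with the 2 replicate 1 arrays of the MDX groups highest. The mean level was 7.40 ± 0.44 in MDX_JJ101, 7.48 ± 0.38 in MDX_tap and 7.16 ± 0.12 in B10_tap (SD, n = 2 each). MDX_tap differed from B10_tap by 0.31 (95% interval -0.38 to 1.01), MDX_JJ101 from MDX_tap by -0.08 (-0.78 to 0.62) and MDX_JJ101 from B10_tap by 0.23 (-0.46 to 0.93). In this scaling the upper bound exceeded 1 unit, a doubling, only in MDX_tap against B10_tap, and only just. The bounds hold for this scaling alone. Between MDX_JJ101 and B10_tap the Nppb difference was 0.63 after median centring, but -0.26 when scaled to the spike-ins. A doubling of Nppb is therefore not excluded by these bounds.

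Within each group the hormone genes deviated the same way between the replicates. Nppb in replicate 1 was 0.62 above replicate 2 in MDX_JJ101, 0.53 above it in MDX_tap and 0.17 below it in B10_tap, each of the same sign as for Nppa. The distance between the 2 genes within an array, which no rescaling of the array can alter, was steadier between replicates than either level in both MDX groups, and steadier than Nppa but not than Nppb in B10_tap. This quantity was chosen after the values were seen and is given without a test. Nppa minus Nppb was 2.28 and 2.25 on the MDX_JJ101 arrays, 1.23 and 1.31 on the MDX_tap arrays, and 0.018 and 0.23 on the B10_tap arrays. The replicates of each group lay within 0.21 of each other and no 2 groups overlapped.

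The mean of this distance was 2.27 ± 0.019 in MDX_JJ101, 1.27 ± 0.057 in MDX_tap and 0.13 ± 0.15 in B10_tap (SD, n = 2 each). The ratio of Nppa to Nppb signal was 2.21-fold higher in MDX_tap than in B10_tap, 1.99-fold higher in MDX_JJ101 than in MDX_tap and 4.41-fold higher in MDX_JJ101 than in B10_tap. With the authors' own values the same steps on the log2 scale were 1.19, 0.87 and 2.07, and with another background correction 1.21, 0.87 and 2.08. Each probe has its own brightness, so a ratio near 1 does not mean equal numbers of the 2 transcripts. A change of the ratio between arrays shows unequal change of the 2 genes.

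**Figure D3:**
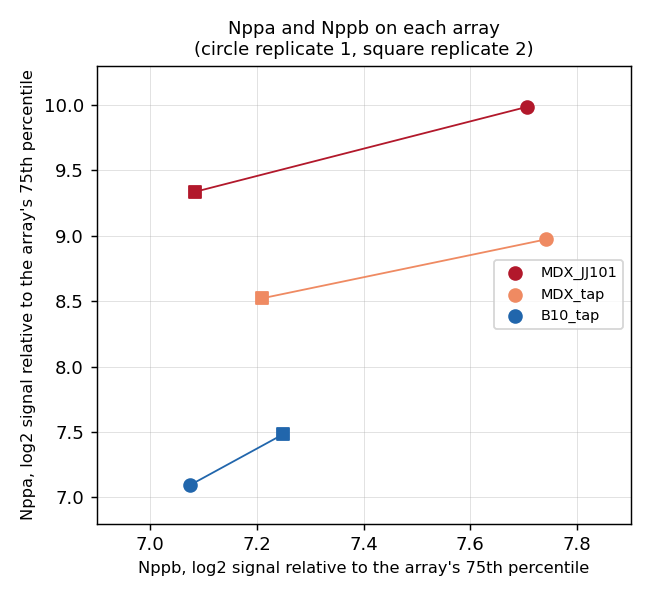
Level of Nppa (vertical axis) against Nppb (horizontal axis) on the 6 arrays, both as log2 signal over the array's 75th percentile, with a line joining the 2 replicates of each group. Each group's line slopes upward, and the groups are set apart along the Nppa axis, not along the Nppb axis.

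Corin, the protease gene, had no difference past the threshold. Its levels were 3.19 and 3.33 on the MDX_JJ101 arrays, 2.70 and 3.39 on the MDX_tap arrays, and 2.88 and 2.61 on the B10_tap arrays. The 2 MDX_tap arrays spanned nearly the whole range of the 6, and both MDX_JJ101 arrays lay above both B10_tap arrays. The difference was 0.30 for MDX_tap against B10_tap (95% interval -0.34 to 0.94, limma adjusted p = 0.523) and 0.21 for MDX_JJ101 against MDX_tap (-0.42 to 0.85, adjusted p = 0.526). It was 0.51 between MDX_JJ101 and B10_tap (-0.13 to 1.15, limma adjusted p = 0.165). The threshold was 0.05, and the upper bound of the last interval exceeds a doubling.

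Npr1, the receptor of both hormones, was too dim to be measured on most arrays. Its probe was well above background on B10_tap replicate 1 alone, with a level of -3.27, and it did not pass the filter. The other levels were -4.71 and -4.53 on the MDX_JJ101 arrays, -4.08 and -4.60 on the MDX_tap arrays, and -4.13 on B10_tap replicate 2. The only bound that can be given is for MDX_tap against B10_tap, at least 1.30-fold lower, with B10_tap measured on 1 of 2 arrays and the groups overlapping. The bound sets the mean level of the brighter group against the dimmer one's, where each array of the dimmer group counts at the higher of the probe's own level and the lowest level called well above background on that array.

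Npr2 was higher in MDX_JJ101 than in MDX_tap. Its levels were 2.94 and 3.13 on the MDX_JJ101 arrays, 2.58 and 2.56 on the MDX_tap arrays, and 2.80 and 2.72 on the B10_tap arrays, so the 3 groups did not overlap and MDX_tap was lowest. The mean level was 3.03 ± 0.14 in MDX_JJ101, 2.57 ± 0.013 in MDX_tap and 2.76 ± 0.06 in B10_tap (SD, n = 2 each). The difference between MDX_JJ101 and MDX_tap was 0.47 (SE 0.11, 95% interval 0.18 to 0.75), or 1.38-fold, with a limma adjusted p of 0.0307. It was -0.19 for MDX_tap against B10_tap (-0.48 to 0.09, adjusted p = 0.369) and 0.27 for MDX_JJ101 against B10_tap (-0.01 to 0.56, adjusted p = 0.114). The call between MDX_JJ101 and MDX_tap ended in 11 of 15 alternatives. The fits without either B10_tap array gave the same result as the fit of these 2 groups alone. This and later counts therefore hold that fit more than once, and the alternatives are not all separate. The difference was 0.02 with spike-in scaling (adjusted p = 0.986) and 0.24 both with another background correction (adjusted p = 0.0844) and with the authors' values (adjusted p = 0.106).

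Npr3, the clearance receptor, was highest in MDX_tap, where Npr2 was lowest. Its levels were -0.22 and -0.68 on the MDX_JJ101 arrays, -0.04 and 0.22 on the MDX_tap arrays, and -0.49 and -0.55 on the B10_tap arrays. Both MDX_tap arrays lay above all others, and MDX_JJ101 overlapped with B10_tap. The difference was 0.61 for MDX_tap against B10_tap (SE 0.19, 95% interval 0.13 to 1.08), or 1.52-fold, with a limma adjusted p of 0.176. It was -0.53 for MDX_JJ101 against MDX_tap (95% interval -1.01 to -0.06), 1.45-fold lower, with a limma adjusted p of 0.0774. For MDX_JJ101 against B10_tap it was 0.07 (-0.40 to 0.55, limma adjusted p = 0.781). None passed, although MDX_JJ101 against MDX_tap passed with the authors' values (adjusted p = 0.0371), with another background correction (0.0337) and without MDX_JJ101 replicate 1 (0.0282).

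Fibroblast markers, like Npr3, were highest in MDX_tap. The summed signal of 5 fibroblast markers (Pdgfra, Col1a1, Dcn, Lum and Tcf21), in units of the 75th percentile, was 222 to 313 in MDX_JJ101, 594 to 641 in MDX_tap and 413 to 434 in B10_tap. All 5 were above 0 in difference for MDX_tap against B10_tap, with a median of 0.53. None passed limma's threshold (background 0.024%), and 3 were at an unadjusted p under 0.05, as were 4383 of all 20871 genes. In MDX_JJ101 against MDX_tap 3 of 5 fell (background 16.1% lower), with a median of -0.68. Endothelial markers, of the cells that line vessels and heart chambers, summed to 28.3 to 32.1 in MDX_JJ101, 42.8 to 45.4 in MDX_tap and 46.2 to 48.5 in B10_tap, and 4 of 7 fell in MDX_JJ101 against MDX_tap (background 16.1% lower). The part of these cells in the receptor values was not tested.

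**Figure D4:**
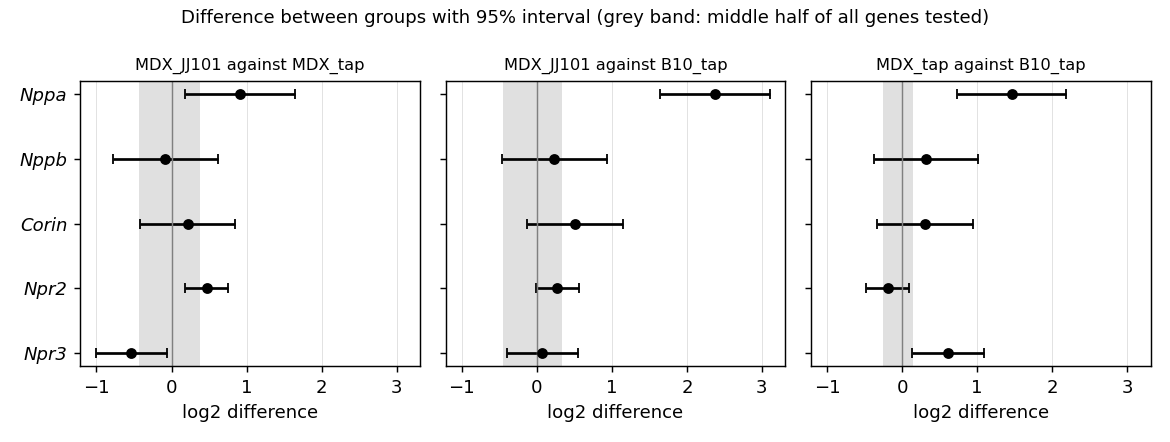
Difference in mean level (log2) of the 5 genes that passed the filter, with 95% limma intervals, for MDX_JJ101 against MDX_tap, MDX_JJ101 against B10_tap and MDX_tap against B10_tap. The grey band holds the central 50% of all 20871 genes tested, from -0.43 to 0.38, -0.45 to 0.33 and -0.26 to 0.14 in the same order. Nppa, whose levels chose the gene set, lies right of the band in each panel. In MDX_JJ101 against MDX_tap Npr2 lies right of it and Npr3 left of it. Corin lies right of it in MDX_JJ101 against B10_tap, and Nppb, Corin and Npr3 do so in MDX_tap against B10_tap. The other differences lie within the band. The intervals of Nppa and Nppb are descriptions and no test.

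Of the 3 genes that were tested, Corin, Npr2 and Npr3, limma counted 0 past the threshold for MDX_tap against B10_tap, with 1 at an unadjusted p under 0.05. Of all genes 0.024% (5 of 20871) passed there, with 4383 at an unadjusted p under 0.05. For MDX_JJ101 against MDX_tap 1 of the 3 passed, Npr2, where 36.1% of all genes did. For MDX_JJ101 against B10_tap 0 of the 3 passed, with 0 at an unadjusted p under 0.05, where 33.6% of all genes passed. Nothing is read from these counts. With the hormone genes included, as a description, the median difference of the 5 genes that passed the filter was 0.31 between MDX_tap and B10_tap, 0.21 between MDX_JJ101 and MDX_tap, and 0.27 between MDX_JJ101 and B10_tap. Over all genes the medians were -0.06, 0.00 and -0.01 in the same comparisons.

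**Figure D5:**
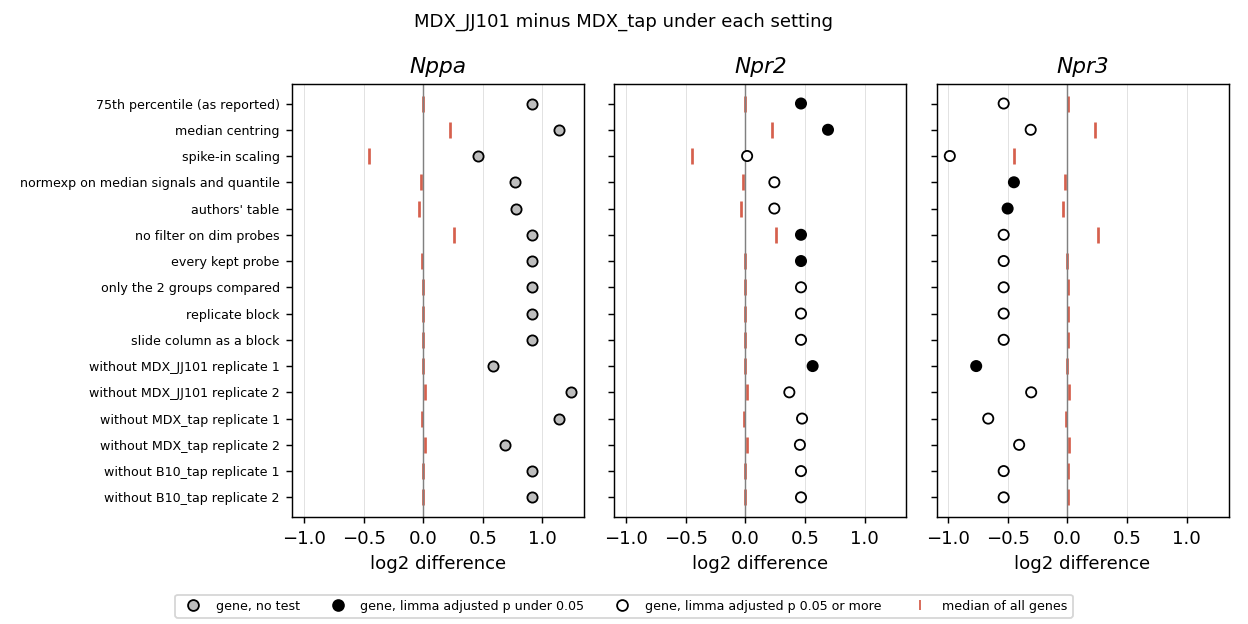
Difference in level (log2) of Nppa, Npr2 and Npr3 between MDX_JJ101 and MDX_tap as reported and under 15 other settings. Grey circles carry no test, black circles have a limma adjusted p under 0.05, white circles do not, and red ticks mark the median of all genes. Nppa stays above 0 throughout, Npr3 stays below 0, and Npr2 is close to 0 with spike-in scaling.

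The steps around the hormones were described from a list of 27 further genes, for peptide cutting, cyclic GMP signalling and hormone storage granules, of which 22 passed the filter. Cyclic GMP is the messenger that the guanylyl cyclase receptors make. Nppc, the gene of the C-type peptide that Npr2 binds, was not well above background on any array, and Ostn, a peptide that binds Npr3, was so on MDX_JJ101 replicate 1 alone. None of the 22 passed for MDX_tap against B10_tap by limma (background 0.024%), with 7 at an unadjusted p under 0.05. Over all genes 4383 of 20871 were at an unadjusted p under 0.05 there. For MDX_JJ101 against MDX_tap 7 were higher and 6 lower (background 19.9% higher and 16.1% lower), with a median difference of 0.06. For MDX_JJ101 against B10_tap 6 were higher and 4 lower (background 16.2% and 17.4%), with a median of 0.08. With spike-in scaling the split for MDX_JJ101 against MDX_tap was 1 higher and 5 lower, where 19.1% of all genes passed and their median difference was -0.45. With median centring it was 9 higher and 4 lower, where 36.4% of all genes passed and their median was 0.23. In these settings the split leaned the way the median of all genes had moved, but not in every setting. Without the filter on dim probes it was 5 higher and 5 lower, where 36.9% of all genes passed and their median was 0.26. With only the 2 groups fitted it was 1 higher and 2 lower, where 15.6% passed and the median was 0.00. The cause of these changes was not tested. With slide column as a block, none of the 22 passed for MDX_JJ101 against MDX_tap, with 12 at an unadjusted p under 0.05 by limma. Of all 20871 genes 0% passed in that setting, with 8859 at an unadjusted p under 0.05. Leaving out an MDX_tap array reduced the calls for MDX_JJ101 against MDX_tap, and leaving out a B10_tap array reduced those for MDX_JJ101 against B10_tap. Such a fit has 1 array in a compared group, as has a fit without an MDX_JJ101 array. The cause of the reduction was not tested.

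Among the cutting enzymes, Furin, a convertase that cuts prohormones including that of Nppb, had levels of 2.88 and 3.32 on the MDX_JJ101 arrays, 2.34 and 2.44 on the MDX_tap arrays, and 2.47 and 2.48 on the B10_tap arrays. It was higher in MDX_JJ101 than in MDX_tap by 0.71 (limma adjusted p = 0.0286). Pcsk6, the convertase known to activate corin, went the other way, with a difference of -0.34 (adjusted p = 0.0493, called in 2 of 15 alternatives). Mme (neprilysin), which degrades the peptides, and Dpp4, which trims brain natriuretic peptide, were both lower in MDX_JJ101. Dpp4 had levels of -2.66 and -2.68 on the MDX_JJ101 arrays, -1.52 and -1.64 on the MDX_tap arrays, and -1.88 and -2.14 on the B10_tap arrays. Its difference was -1.09 for MDX_JJ101 against MDX_tap (limma adjusted p = 0.0128), and that of Mme was -0.81 (adjusted p = 0.0278), with MDX_JJ101 measured on 1 of 2 arrays. Ide, a further degrading enzyme, was higher by 0.57 (limma adjusted p = 0.0323). Dpp4 was called in 13 of 15 alternatives, Furin and Ide in 7 each, and Mme in 4, with Mme differences between -1.26 and -0.24.

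In cyclic GMP signalling, the phosphodiesterase gene Pde5a, whose enzyme breaks down cyclic GMP, had the widest separation of the list. Its levels were 1.1 and 1.17 on the MDX_JJ101 arrays, -0.51 and -0.31 on the MDX_tap arrays, and 0.34 and 0.39 on the B10_tap arrays. The groups did not overlap, and MDX_tap was lowest. The difference was 1.54 for MDX_JJ101 against MDX_tap (limma adjusted p = 0.0124, called in 13 of 15 alternatives), 0.77 for MDX_JJ101 against B10_tap (adjusted p = 0.013) and -0.78 for MDX_tap against B10_tap (adjusted p = 0.0813). Gucy1a1 and Gucy1b1, the subunits of the cyclase that answers to nitric oxide, were both lower in MDX_JJ101 than in MDX_tap, by differences of -0.94 (limma adjusted p = 0.0233) and -0.93 (adjusted p = 0.0152). Prkg1, the cyclic GMP-dependent kinase, was higher by 0.50 (adjusted p = 0.0198) and Pde2a, a phosphodiesterase that cyclic GMP stimulates, by 0.44 (adjusted p = 0.0358). Of 15 alternatives, Gucy1b1 was called in 12, Gucy1a1 in 9, Prkg1 in 7 and Pde2a in 5. With spike-in scaling the differences of Prkg1 and Pde2a were 0.05 and -0.01.

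Of the kinase targets, Rgs4, a brake on G protein signalling, was lower in MDX_JJ101 than in MDX_tap, with a difference of -0.86 (limma adjusted p = 0.0232, called in 9 of 15 alternatives). Rgs2, a related brake, had levels of 4.36 and 4.56 on the MDX_JJ101 arrays, 4.34 and 4.40 on the MDX_tap arrays, and 3.79 and 3.64 on the B10_tap arrays. It was higher in MDX_JJ101 than in B10_tap by 0.74 (limma adjusted p = 0.0155), while the difference between MDX_tap and B10_tap, 0.65, did not pass (adjusted p = 0.107). Phospholamban (Pln), which restrains the calcium pump of the sarcoplasmic reticulum, differed by 0.48 between MDX_JJ101 and MDX_tap (adjusted p = 0.0569) and did not pass.

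Of the genes of hormone storage granules that passed the filter, Pam and Cpe ran in the order of Nppa and Chgb did not. Pam, an enzyme abundant in the membrane of atrial granules, had levels of 3.37 and 3.13 on the MDX_JJ101 arrays, 2.62 and 3.01 on the MDX_tap arrays, and 2.32 and 2.29 on the B10_tap arrays, without overlap. It was higher in MDX_JJ101 than in B10_tap by 0.95 (limma adjusted p = 0.0175). Its difference was 0.44 for MDX_JJ101 against MDX_tap (adjusted p = 0.0937) and 0.51 for MDX_tap against B10_tap (adjusted p = 0.189), neither of which passed. Cpe, carboxypeptidase E, had levels of 7.11 and 7.17 on the MDX_JJ101 arrays, 6.62 and 6.83 on the MDX_tap arrays, and 6.49 and 6.44 on the B10_tap arrays. Its difference was 0.41 for MDX_JJ101 against MDX_tap (limma adjusted p = 0.0428) and 0.67 for MDX_JJ101 against B10_tap (adjusted p = 0.0164). Chgb, a granule matrix protein gene, had its lowest mean in MDX_tap. Its levels were -3.09 and -2.88 on the MDX_JJ101 arrays, -3.72 and -4.43 on the MDX_tap arrays, and -3.76 and -3.22 on the B10_tap arrays. For MDX_tap against B10_tap the Chgb difference was -0.59 (limma adjusted p = 0.32). Chgb was higher in MDX_JJ101 than in MDX_tap by 1.09 (limma adjusted p = 0.042), with MDX_tap measured on 1 of 2 arrays. That difference of Chgb lay between 0.26 and 1.45 and was called in 2 of 15 alternatives, and the MDX_JJ101 against MDX_tap difference of Cpe was called in 4. With spike-in scaling the Pam and Cpe differences between MDX_JJ101 and MDX_tap were -0.01 and -0.04. Chga and Scg2, of the same family, did not pass the filter.

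Heart regulator genes, whose signals also chose the gene set, are given as a description with no test. Gata4, Nkx2-5 and Tbx5 encode the cardiac transcription factors whose motifs were searched in the promoters above. Tbx5 had levels of 2.17 and 2.23 on the MDX_JJ101 arrays, 1.18 and 0.96 on the MDX_tap arrays, and 1.60 and 1.42 on the B10_tap arrays. In MDX_JJ101 against MDX_tap the difference was 0.69 for Gata4, 0.96 for Nkx2-5 and 1.13 for Tbx5. With spike-in scaling they were 0.24, 0.51 and 0.68. In MDX_tap against B10_tap, where Nppa differed by 1.46, the differences were -0.10 for Gata4, -0.22 for Nkx2-5 and -0.44 for Tbx5.

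Over the list for any heart chamber, which holds these regulators, 9 of 9 differences were above 0 for MDX_JJ101 against MDX_tap, with a median of 0.56, and 1 of 9 for MDX_tap against B10_tap, with a median of -0.18. The summed signal of that list, in units of the 75th percentile, was 5481 to 5713 in MDX_JJ101, 4406 to 4887 in MDX_tap and 5091 to 5191 in B10_tap. The ventricular list summed to 3061 to 3193 in MDX_JJ101, 2757 to 3089 in MDX_tap and 3177 to 3220 in B10_tap, and the atrial list to 6.84 to 8.50, 9.23 to 11.0 and 6.16 to 6.77. The order of none of these sums was that of Nppa. The part of heart cell content in the Nppa values was not tested. Gene by gene, 5 of the 6 ventricular genes were higher in MDX_JJ101 than in MDX_tap, with a median difference of 0.37. Only 2 of the 6 were higher in MDX_tap than in B10_tap, with a median of -0.15. One of the 6, the slow and fetal ventricular myosin gene Myh7, is named here because it ran in the order of Nppa. Its levels were 6.79 and 7.0 on the MDX_JJ101 arrays, 6.53 and 5.91 on the MDX_tap arrays, and 5.23 and 5.75 on the B10_tap arrays. The Myh7 difference was 1.4 between MDX_JJ101 and B10_tap, 0.68 between MDX_JJ101 and MDX_tap, and 0.72 between MDX_tap and B10_tap. Having been picked for its order, Myh7 is given as a description with no test.

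Genes most like each member over the 6 arrays were named as those with the highest Pearson correlation of levels among 12313 genes with a symbol that were well above background on every array. With 6 arrays in 3 groups of 2 such values are descriptions and carry no p, and the arrays share one slide and one scan. For Nppa they were H2aj (0.996), Mthfd2 (0.996), Nxf1 (0.994), Lsm2 (0.994) and Bcr (0.991). Mthfd2, a mitochondrial enzyme of folate metabolism, had levels of 0.78 and -0.11 on the MDX_JJ101 arrays, -0.72 and -1.13 on the MDX_tap arrays, and -2.82 and -2.68 on the B10_tap arrays. H2aj, a histone variant, ran in the same order over a much narrower range, with levels of 6.40 and 6.32 on the MDX_JJ101 arrays, 6.26 and 6.24 on the MDX_tap arrays, and 6.09 and 6.13 on the B10_tap arrays. None of the 5 was among the most alike for another member. The leading gene was Vps26c for Nppb (0.994), Efna5 for Corin (0.994), Maf1 for Npr2 (0.998) and Fam13b for Npr3 (0.993), with the collagen gene Col6a3 next for Npr3 (0.991). High correlations were common over so few arrays. Of the 12313 genes, 2153 exceeded 0.9 with Npr2, 396 with Nppa, 311 with Npr3, 102 with Corin and 44 with Nppb. The named genes are therefore not read as linked to the members.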

How the data were processed

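Total RNA was hybridised to 6 one-colour (Cy3) Agilent arrays. The deposited intensity values are the processed signals of Agilent Feature Extraction 11.5.1.1, which the authors ran, per the submitters' processing notes. The authors' series table, on the log2 scale per its values, has unstated normalization and the same rank order as the median signal, which was used only as an alternative. The other deposited columns used are 0 or 1 flags for outlier, saturated and well-above-background spots.

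From the log2 of each processed signal the 75th percentile of its array, taken over 59305 non-control spots, was subtracted. Outlier spots were left out and spots of a probe averaged. Probes were kept where both arrays of some group had them well above background, and each gene took its brightest kept probe. The 27656 probes with a symbol were named through RefSeq accessions (GRCm38.p6 table). The files' coordinates are on mm9, and none are printed. All 6 arrays entered 1 limma fit, version 3.58.1 under R 4.3.3 (3 residual degrees of freedom, 2.21 prior degrees of freedom), two-sided, with Benjamini-Hochberg adjustment over 20871 genes and a threshold of 0.05; the code was tested on simulated data. Arrays carry no read depth, so their number limits precision.

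All 6 genes are named, and every pathway gene named comes from 1 list counted in full. The members, the pathway list and the marker lists were chosen with earlier results of these data known. Alternatives were median centring, spike-in scaling, normexp with quantile normalization, the authors' log2 table, no filter, every probe, 2-group fits, a replicate block, slide column as a block and leaving out each array. Leaving out an array of the group not compared gave the same result as the 2-group fit. Counts of alternatives therefore hold that fit more than once.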

Additional observations from a re-analysis of the deposited data

How the results depend on the processing

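Counts past the threshold over the 5 measured genes include Nppa, whose values chose the set, and are given for completeness only. For MDX_tap against B10_tap the count was 0 in the main setting, where 0.024% of all genes passed. It was 1, in each case Nppa itself, with median centring (1.37% of all genes), with spike-in scaling (2.01%) and with normexp and quantile normalization (1.89%). The last was chosen after seeing the data, on median signals, in place of the planned one on mean signals, which was not run. For MDX_JJ101 against MDX_tap it was 1 in the main setting, Npr2 (36.1% of all genes), and 2 with median centring, Npr2 and Nppa (36.4%). It was 0 with spike-in scaling (19.1% of all genes) and with only these 2 groups fitted (15.6%). With the replicate block (31.2%) and with slide column as a block (0%) it was 0 too. The count also changed when some arrays were left out. For MDX_JJ101 against B10_tap it was 1 in the main setting, which was Nppa itself (33.6% of all genes passed). It was 3 with median centring, Nppa among them (48.4% of all genes), and it changed when either B10_tap array was left out. Median centring moved the median of all genes to 0.39 in that comparison and spike-in scaling to -0.50. The cause of the changes in the counts was not tested.

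Replicate deviations correlated at 0.16, -0.06 and -0.03 between the groups. Such values cannot show whether arrays of the same replicate number were paired, since a pairing of small effect would leave them low. With the replicate block, 0 of the 5 genes passed for MDX_JJ101 against MDX_tap, with 2 at an unadjusted p under 0.05 by limma, and 6518 of all genes passed against 7529 without it. Slide column as a block gave 0 calls over all genes there, with 8859 at an unadjusted p under 0.05, and could be fitted for that comparison only. Over all genes, calls for that comparison were 3994 with spike-in scaling, 3248 with only its 2 groups fitted, 3737 without MDX_JJ101 replicate 2, 1404 without MDX_tap replicate 1 and 48 without MDX_tap replicate 2. For MDX_tap against B10_tap they were 5 as reported, 285 with median centring, 419 with spike-in scaling, 394 with normexp, 337 with the authors' table, 15 with every probe, 125 with its 2 groups alone, and 0 without a filter (5113 at an unadjusted p under 0.05). Between MDX_JJ101 and B10_tap they were 7009 as reported, 112 without B10_tap replicate 1 and 76 without B10_tap replicate 2.

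Nppa kept its direction in every alternative run, between 1.23 and 1.69 for MDX_tap against B10_tap, 0.46 and 1.24 for MDX_JJ101 against MDX_tap, and 1.88 and 2.77 for MDX_JJ101 against B10_tap. Npr3 kept its direction for MDX_JJ101 against MDX_tap, between -0.99 and -0.30. Differences that changed sign were Corin for MDX_tap against B10_tap (-0.0464 without MDX_tap replicate 2, and up to 0.64 with another array left out), and, for MDX_JJ101 against MDX_tap, Nppb (0.15 with median centring, 0.23 without MDX_JJ101 replicate 2, 0.19 without MDX_tap replicate 1, and down to -0.39 with another array left out) and Corin (-0.24 with spike-in scaling, -0.13 without MDX_tap replicate 1, and up to 0.56 with another array left out). For MDX_JJ101 against B10_tap they were Nppb (-0.26 with spike-in scaling, -0.077 without MDX_JJ101 replicate 1, and up to 0.55 with another array left out), Npr2 (-0.22 with spike-in scaling) and Npr3 (-0.42 with spike-in scaling, -0.0217 with normexp, -0.0366 with the authors' table, -0.16 without MDX_JJ101 replicate 1, and up to 0.30 with another array left out). Signals near background limited Npr1 to a bound.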

Other observations

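Acta1, the skeletal alpha actin gene, which the fetal ventricle also expresses, had levels of 6.82 and 6.47 on the MDX_JJ101 arrays, 6.23 and 5.56 on the MDX_tap arrays, and 5.40 and 5.64 on the B10_tap arrays. Its MDX_tap and B10_tap arrays overlapped. Dkk3, listed as an atrial marker, had levels of 1.35 and 0.08 on the MDX_JJ101 arrays, 1.79 and 1.84 on the MDX_tap arrays, and -0.58 and -0.07 on the B10_tap arrays. Its MDX_JJ101 arrays were 1.27 apart. Without the filter on dim probes, the Npr1 difference was -0.64 between MDX_tap and B10_tap (limma adjusted p = 0.509), -0.28 between MDX_JJ101 and MDX_tap (0.56), and -0.92 between MDX_JJ101 and B10_tap (0.0988) over 36983 genes, all from signals that were mostly not well above background.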
